A study of Mus musculus with 3 samples.

Results

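Adhesion genes of microglia and neighbouring brain macrophages were followed across 3 single-cell libraries. The set held 10 genes of the 20586 in the deposited table. They were chosen by name as 2 immunoglobulin-type ligands (Vcam1 and Icam1), 7 integrin chains (Itgam, Itgb2, Itgax, Itgav, Itgb5, Itga6 and Itgb1) and the selectin ligand Selplg. Each was read in every library and in every deposited cluster of cells.

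The libraries came from CD45-positive cells of mouse thalamus, sorted 4 hours after the ventricles of the brain had been injected. Cells of the cKO IL-33 library were from mice with Cx3cr1-creER and homozygous floxed ST2 that received IL-33, an alarm cytokine released by damaged tissue. The WT IL-33 library came from Cx3cr1-creER heterozygotes given IL-33, and the WT vehicle library from Cx3cr1-creER heterozygotes given vehicle. All 3 groups therefore carried Cx3cr1-creER, whose promoter turns the recombinase on in microglia and also in macrophages related to them, and no floxed library given vehicle was analysed here. The number of animals per library and their ages are not stated in the sources used here. Since each group is a single library, differences have no replicate check, no test was made, and every interval below is a 95% interval for counting error only.

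Integrins are pairs of an alpha and a beta chain at the cell surface that hold cells to matrix, to other cells and to opsonised targets. Itgam and Itgax each pair with Itgb2 to form complement receptors that microglia use in phagocytosis, and Itgal, the third leukocyte chain, pairs with Itgb2 to bind Icam1. Vcam1 is bound by Itga4 paired with Itgb1. Endothelium that has met inflammatory cytokines is the best known source of Vcam1 and Icam1, and macrophages can make both.

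The libraries held 2687 cKO IL-33, 2202 WT IL-33 and 2709 WT vehicle cells, with medians of 5119, 3951 and 5544 UMIs (unique molecular identifiers, 1 per captured RNA molecule) per cell. At least 3 of 8 microglial markers were seen in 99.9% of all cells, and Ptprc, which encodes CD45, had a UMI in 83.6%. The 8 microglial markers summed to 23336 CPM (summed UMIs scaled to a common library total of 1 M) in cKO IL-33, 14937 CPM in WT IL-33 and 21913 CPM in WT vehicle, lower in WT IL-33 as several members below were, and their part in those results was not tested. Deposited cluster 1 took 82.4% of the WT IL-33 cells, with 35 cKO IL-33 and 20 WT vehicle cells beside them. By the authors' calls, 2648 cKO IL-33 cells were female, the WT IL-33 cells were 1107 female and 1095 male, and 2701 WT vehicle cells were male, so that sex and group cannot be told apart in full. Both Xist and Y-linked UMIs were held by 3 cKO IL-33, 305 WT IL-33 and 7 WT vehicle cells, and 2 barcodes were shared between libraries. The endothelial marker Cldn5 was at 0 in every library, and the 5 endothelial markers summed to 6.41, 6.76 and 6.51 CPM in cKO IL-33, WT IL-33 and WT vehicle. Il1rl1, which encodes ST2, had 224, 70 and 212 UMIs in cKO IL-33, WT IL-33 and WT vehicle. Which exons were deleted is not stated in the sources used here, and a library that reads RNA ends does not check such a deletion.

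Promoter sequence is shown for 3 members whose levels went different ways, Icam1 (higher in WT IL-33 than in WT vehicle), Itgb5 (lower) and Itgam (level). Each run holds the 250 bases before the RefSeq gene start on the plus strand of GRCm38.p6. These are chr9:21015690-21015939 for Icam1, chr16:33829415-33829664 for Itgb5 and chr7:128062390-128062639 for Itgam. Capitals mark every match, on either strand, to GGGNNNNNCC (an NF-kB-type motif), to its variant GGAAATTCC or to TTCNNNGAA (a STAT-type motif).
Icam1: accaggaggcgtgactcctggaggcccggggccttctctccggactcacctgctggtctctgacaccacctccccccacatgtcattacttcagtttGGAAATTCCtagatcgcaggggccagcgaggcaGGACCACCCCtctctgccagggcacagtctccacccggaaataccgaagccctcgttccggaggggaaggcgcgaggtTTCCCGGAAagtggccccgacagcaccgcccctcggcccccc
Itgb5: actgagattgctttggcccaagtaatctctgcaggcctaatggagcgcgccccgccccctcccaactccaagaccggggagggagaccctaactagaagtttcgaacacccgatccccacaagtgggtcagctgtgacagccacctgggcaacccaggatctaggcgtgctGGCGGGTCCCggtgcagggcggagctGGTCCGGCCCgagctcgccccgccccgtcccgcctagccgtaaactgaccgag
Itgam: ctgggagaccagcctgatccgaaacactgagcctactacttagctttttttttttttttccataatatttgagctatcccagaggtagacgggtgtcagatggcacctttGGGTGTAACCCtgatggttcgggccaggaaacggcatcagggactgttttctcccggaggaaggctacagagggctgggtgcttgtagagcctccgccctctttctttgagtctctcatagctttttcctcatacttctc
The Icam1 run held GGAAATTCC at -153 to -145, a GGGNNNNNCC match on the minus strand at -120 to -111, and TTCCCGGAA at -42 to -34, counted back from the gene start. GGAAATTCC lay in 0.286% of 32851 mouse promoter windows of the same length and TTCNNNGAA in 7.02%, and both were searched for after the Icam1 run had been read. GGGNNNNNCC lay in 45.8% of windows. Matches to it were found in Icam1, Itgam, Itgav and Itgb5 among the 6 members with a sequence, which also include Itgax and Itgb1. The 2 Itgam matches overlap each other, and those of Itgb5 lie at -79 to -70 and -53 to -44. The letters GAGGAA, the core of a PU.1-type motif not capitalised above, lay in 23.3% of windows and in Itgam, Itgav and Itgb1. None of these matches was tested as a binding site.

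The 2 ligands were the members furthest above WT vehicle in WT IL-33. Vcam1 (chromosome 3, 116109949 to 116129688, minus strand, GRCm38), the endothelial and macrophage ligand of Itga4, had 6.86 CPM in cKO IL-33, 129 CPM in WT IL-33 and 1.09 CPM in WT vehicle. These came from 120, 1567 and 20 UMIs. WT IL-33 stood 118-fold above WT vehicle (76.2 to 194), and cKO IL-33 stood 18.8-fold below WT IL-33 (15.6 to 22.9). Icam1 (chromosome 9, 21015985 to 21028817, plus strand), the ligand of the Itgb2 integrins, had 87.3 CPM in cKO IL-33, 451 CPM in WT IL-33 and 75.4 CPM in WT vehicle. It was 5.97-fold higher in WT IL-33 than in WT vehicle (5.63 to 6.34) and 5.16-fold lower in cKO IL-33 than in WT IL-33 (4.88 to 5.47). Gm47079, an antisense gene that overlaps Icam1, had 7, 18 and 4 UMIs in cKO IL-33, WT IL-33 and WT vehicle, set against 1526, 5465 and 1378 Icam1 UMIs.

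**Figure D1:**
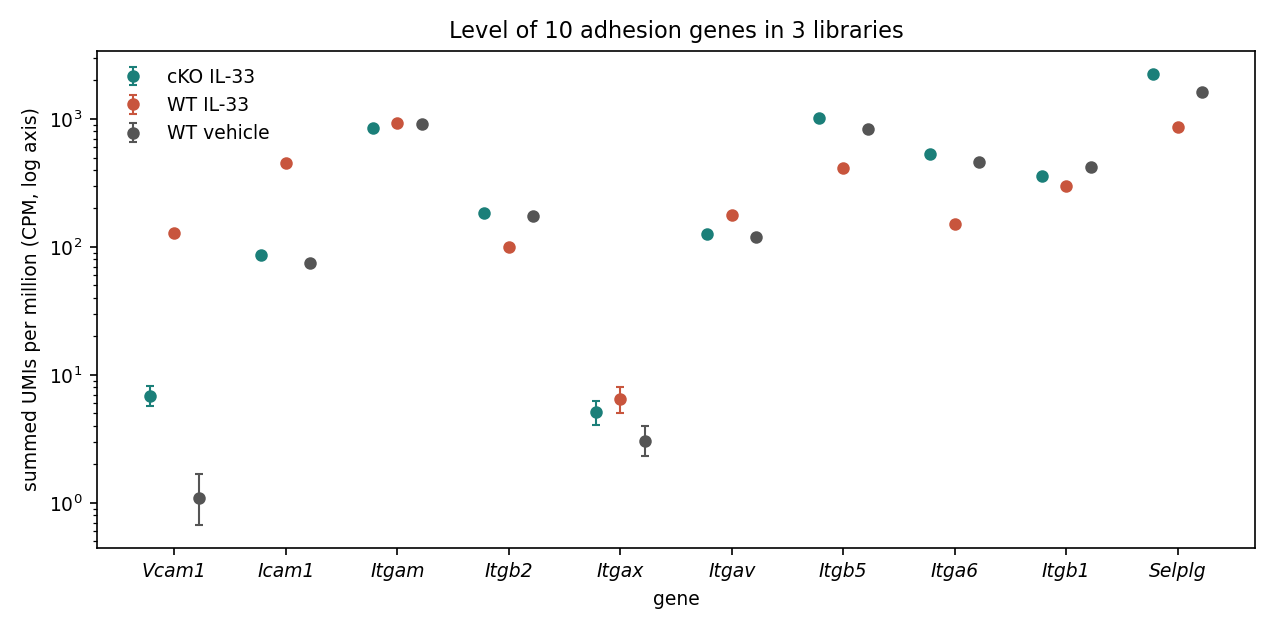
Levels of the 10 genes in CPM of each library (log axis) with exact Poisson 95% intervals, 1 library per group. Vcam1 and Icam1 are highest in WT IL-33, at 129 and 451 CPM, while Itgb2, Itgb5, Itga6, Itgb1 and Selplg are lowest there.

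Over whole libraries the chains of the complement receptors did not move together. Itgam (chromosome 7, 128062640 to 128118491, plus strand), the alpha chain of complement receptor 3, had 856 CPM in cKO IL-33, 924 CPM in WT IL-33 and 916 CPM in WT vehicle. The ratio of WT IL-33 to WT vehicle was 1.01 (0.985 to 1.03), and that of cKO IL-33 to WT IL-33 was 0.927 (0.904 to 0.950). Its partner Itgb2 (chromosome 10, 77530252 to 77565708, plus strand) had 186 CPM in cKO IL-33, 99.5 CPM in WT IL-33 and 175 CPM in WT vehicle. Itgb2 was 1.76-fold lower in WT IL-33 than in WT vehicle (1.65 to 1.88), short of the 2-fold mark. Within clusters 0 and 2 the ratio of WT IL-33 to WT vehicle was 0.918 (0.730 to 1.14) and 0.851 (0.652 to 1.09) for Itgb2. Itgam there was at 0.843 and 0.785, so the chains were close to each other in those clusters. In clusters 3 and 5 the ratios were 0.582 and 0.502 for Itgb2 and 0.902 and 1.05 for Itgam. There were 4.61 Itgam UMIs for each Itgb2 UMI in cKO IL-33, 9.28 in WT IL-33 and 5.23 in WT vehicle. Gm49368, a protein-coding gene that overlaps Itgam on the same strand, is absent from the deposited counts. Its effect on the Itgam count was not tested. Itgax (chromosome 7, 128129547 to 128150657, plus strand), the alpha chain of complement receptor 4, was scarce, with 5.09 CPM in cKO IL-33, 6.43 CPM in WT IL-33 and 3.07 CPM in WT vehicle. Those levels rest on 89, 78 and 56 UMIs and lie below the 10 CPM asked of a counted gene.

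Chains that bind vitronectin and other matrix proteins differed in direction within 1 receptor when read over whole libraries. Itgav (chromosome 2, 83724397 to 83806916, plus strand) had 126 CPM in cKO IL-33, 177 CPM in WT IL-33 and 121 CPM in WT vehicle, and was 1.47-fold higher in WT IL-33 than in WT vehicle (1.38 to 1.56). Within clusters the log2 ratio of Itgav ran from -0.02 to 0.25, and in each of them the interval of the ratio held 1. Itgb5 (chromosome 16, 33829665 to 33949338, plus strand), a beta partner of Itgav, had 1013 CPM in cKO IL-33, 416 CPM in WT IL-33 and 833 CPM in WT vehicle. Itgb5 was 2.003-fold lower in WT IL-33 than in WT vehicle (1.94 to 2.07), at the edge of the 2-fold mark, and 2.44-fold higher in cKO IL-33 than in WT IL-33 (2.36 to 2.51). The UMIs of Itgav for each Itgb5 UMI were 0.125 in cKO IL-33, 0.427 in WT IL-33 and 0.145 in WT vehicle. Gm13684, a gene on the other strand within Itgav, had 28, 14 and 25 UMIs in cKO IL-33, WT IL-33 and WT vehicle.

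The laminin receptor chains and the selectin ligand were lower in WT IL-33 than in the other libraries. Itga6 (chromosome 2, 71745616 to 71858416, plus strand), a laminin-binding alpha chain, had 532 CPM in cKO IL-33, 152 CPM in WT IL-33 and 461 CPM in WT vehicle. It was 3.04-fold lower in WT IL-33 than in WT vehicle (2.89 to 3.20) and 3.51-fold higher in cKO IL-33 than in WT IL-33 (3.33 to 3.69). Itgb1 (chromosome 8, 128685654 to 128733200, plus strand), the shared beta chain of many matrix receptors, had 359 CPM in cKO IL-33, 297 CPM in WT IL-33 and 424 CPM in WT vehicle. That made 1.48 Itga6 UMIs for each Itgb1 UMI in cKO IL-33, 0.511 in WT IL-33 and 1.09 in WT vehicle. Selplg (chromosome 5, 113818536 to 113832644, minus strand), which encodes the P-selectin ligand PSGL-1 and is abundant in resting microglia, had 2251 CPM in cKO IL-33, 864 CPM in WT IL-33 and 1617 CPM in WT vehicle. It was 1.87-fold lower in WT IL-33 than in WT vehicle (1.83 to 1.91) and 2.60-fold higher in cKO IL-33 than in WT IL-33 (2.55 to 2.66). When the WT libraries were cut to male-called cells, Selplg was past 2-fold lower in WT IL-33, at a log2 ratio of -1.27. Some other subsets of cells, given below, passed 2-fold as well.

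Of the 9 members at 10 CPM or more in WT IL-33 or WT vehicle, WT IL-33 had 2 at 2-fold or more above WT vehicle (Vcam1 and Icam1) and 2 at 2-fold or more below it (Itgb5 and Itga6). Vcam1 was under 10 CPM in cKO IL-33 and WT vehicle, so the minimum counted it through WT IL-33 alone. The background over 8814 genes was 11.7% higher and 10.4% lower. The members' median log2 ratio was -0.51 and that of all genes 0.05. In cKO IL-33 over WT IL-33, 3 of 9 members were at least 2-fold higher (Itgb5, Itga6 and Selplg) and 2 lower (Vcam1 and Icam1), beside 10.9% higher and 9.85% lower of 8853 genes. In cKO IL-33 over WT vehicle, 0 of 8 members passed 2-fold in either direction, beside 0.447% higher and 0.483% lower of 8495 genes. The 3 comparisons share libraries, so their ratios are not independent of each other. With so few members, counts of this size are not read as particular to the set.

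**Figure D2:**
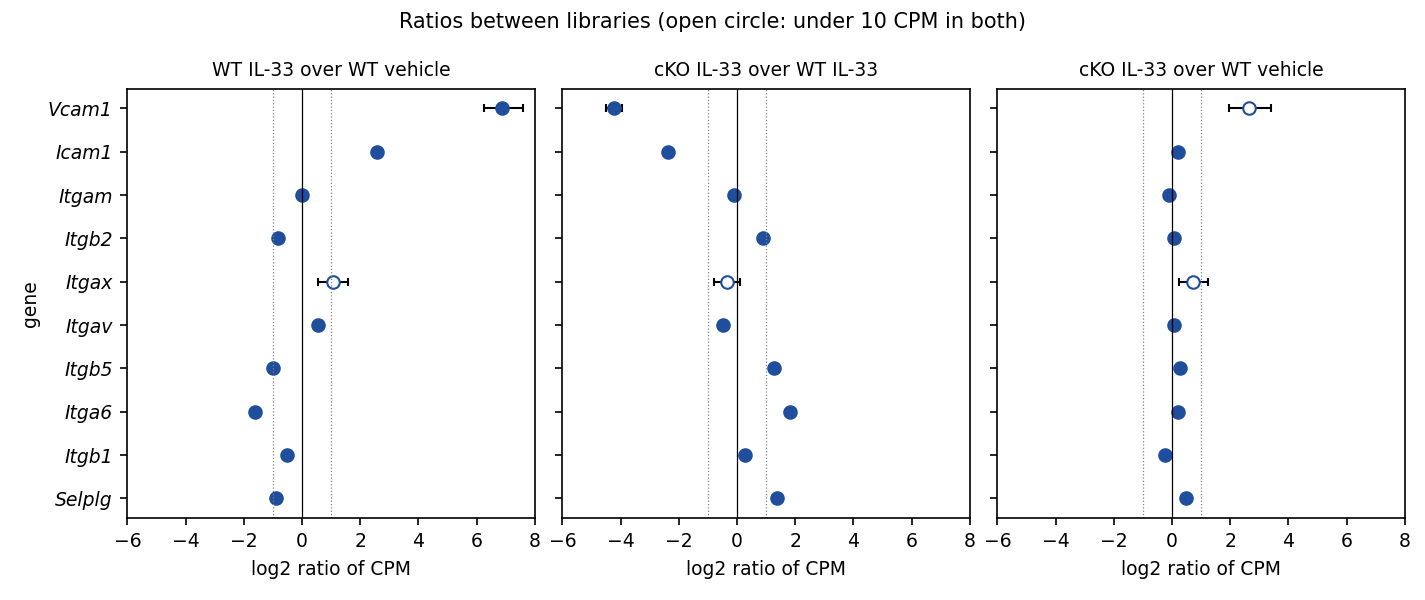
Log2 ratios of CPM with exact binomial 95% intervals for the 3 pairs of libraries, with dotted lines at 2-fold and open circles for genes under 10 CPM in both libraries. Vcam1 lies at 6.88 in WT IL-33 over WT vehicle and at -4.23 in cKO IL-33 over WT IL-33, and the filled circles of cKO IL-33 over WT vehicle all lie within 2-fold.

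In cKO IL-33 over WT vehicle the widest difference among members at 10 CPM or more was that of Selplg, which was 1.39-fold higher (1.37 to 1.41). Itgb5 was 1.22-fold higher (1.19 to 1.24) and Itgb1 stood at 0.847 of WT vehicle (0.819 to 0.876). Icam1 stood at 1.16 times WT vehicle (1.08 to 1.25). Below 10 CPM, Vcam1 was 6.27-fold higher in cKO IL-33 than in WT vehicle (3.89 to 10.6). Of 2687 cKO IL-33 cells 2648 were called female, and of 2709 WT vehicle cells 2701 were called male. Sex and group therefore cannot be told apart in this pair. Within WT IL-33 the ratio of female-called to male-called cells was 1.42 for Selplg, 1.32 for Itgb5, 1.01 for Itgb1 and 0.664 for Icam1.

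The cells behind the cKO IL-33 Vcam1 level were few. Its 120 UMIs lay in 46 of 2687 cells, the fullest of which held 14, and the 5 fullest held 41.7%. Of the 5 border macrophage markers (Pf4, Mrc1, Lyve1, Cd163 and F13a1), which mark macrophages of the brain's surfaces and vessels, at least 2 were seen in 20 cKO IL-33, 4 WT IL-33 and 21 WT vehicle cells. This split was made after the values were seen. A Vcam1 UMI was found in 13 of these 20 cKO IL-33 cells (74 UMIs), in 3 of the 4 WT IL-33 cells (10 UMIs) and in 0 of the 21 WT vehicle cells (exact binomial upper limit 16.1%, or 14.3% by a floor of 3 counts). In all other cells Vcam1 had 2.67 CPM in cKO IL-33, 129 CPM in WT IL-33 and 1.11 CPM in WT vehicle. The log2 ratio of cKO IL-33 to WT vehicle was 1.26 without the marked cells, set against 2.65 with them. Icam1 in the same cells had 61.2 CPM in the 20 cKO IL-33 cells, 257 CPM in the 4 WT IL-33 cells and 67.2 CPM in the 21 WT vehicle cells. Their median depths were 12470 UMIs for cKO IL-33 and 12715 for WT vehicle, all held at least 3 microglial markers, and whether they were doublets was not tested. Over whole libraries the 5 markers summed to 85.9 CPM in cKO IL-33, 11.05 CPM in WT IL-33 (where Lyve1 was at 0) and 75.4 CPM in WT vehicle.

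Single-cell shares were compared after every cell had been thinned to 3000 UMIs, which kept 2601 cKO IL-33, 1849 WT IL-33 and 2632 WT vehicle cells. No cell type that lacks these genes was present in numbers that would give their background from free RNA. A Vcam1 UMI was seen in 1.15% of cKO IL-33, 28.7% of WT IL-33 (26.7% to 30.8%) and 0.342% of WT vehicle cells, against 1.71%, 39.9% and 0.701% of unthinned cells. Icam1 was seen in 21.7%, 60.1% and 18.6% of thinned cKO IL-33, WT IL-33 and WT vehicle cells, and 3 or more of its UMIs in 0.577%, 18.1% and 0.304%. Unthinned, the Icam1 shares were 37.7%, 68.8% and 36.2%. The share of cells with a UMI was therefore higher in WT IL-33 for both genes, as was the share with 3 or more UMIs for Icam1.

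At that depth Itga6 was seen in 74.8% of cKO IL-33, 27.1% of WT IL-33 and 71.9% of WT vehicle cells, and unthinned in 88.7%, 39.9% and 87.8%. Itgb5 was seen in 93.8%, 62.7% and 90.9% of thinned cells in the same order, and unthinned in 98.3%, 73.6% and 97.1%. Selplg was near saturation outside WT IL-33, at 99.3% of thinned cKO IL-33, 68.4% of WT IL-33 and 97.9% of WT vehicle cells, and unthinned at 99.8%, 76.3% and 99.4%. A WT IL-33 cell in which none of its 3000 UMIs was Selplg was thus common, at 31.6% of cells, against 0.692% for cKO IL-33 and 2.05% for WT vehicle. Itgam was seen in nearly the same share of cells in each library, at 88.6%, 90.3% and 89.7% of thinned cKO IL-33, WT IL-33 and WT vehicle cells, and 95.3%, 93.96% and 96.7% unthinned. The remaining shares of thinned cells in cKO IL-33, WT IL-33 and WT vehicle were 40.9%, 25.5% and 38.6% for Itgb2, 29.9%, 39.6% and 29.2% for Itgav and 63.2%, 57.5% and 69.1% for Itgb1. Itgax was seen in 1.27%, 2.06% and 0.798%.

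**Figure D3:**
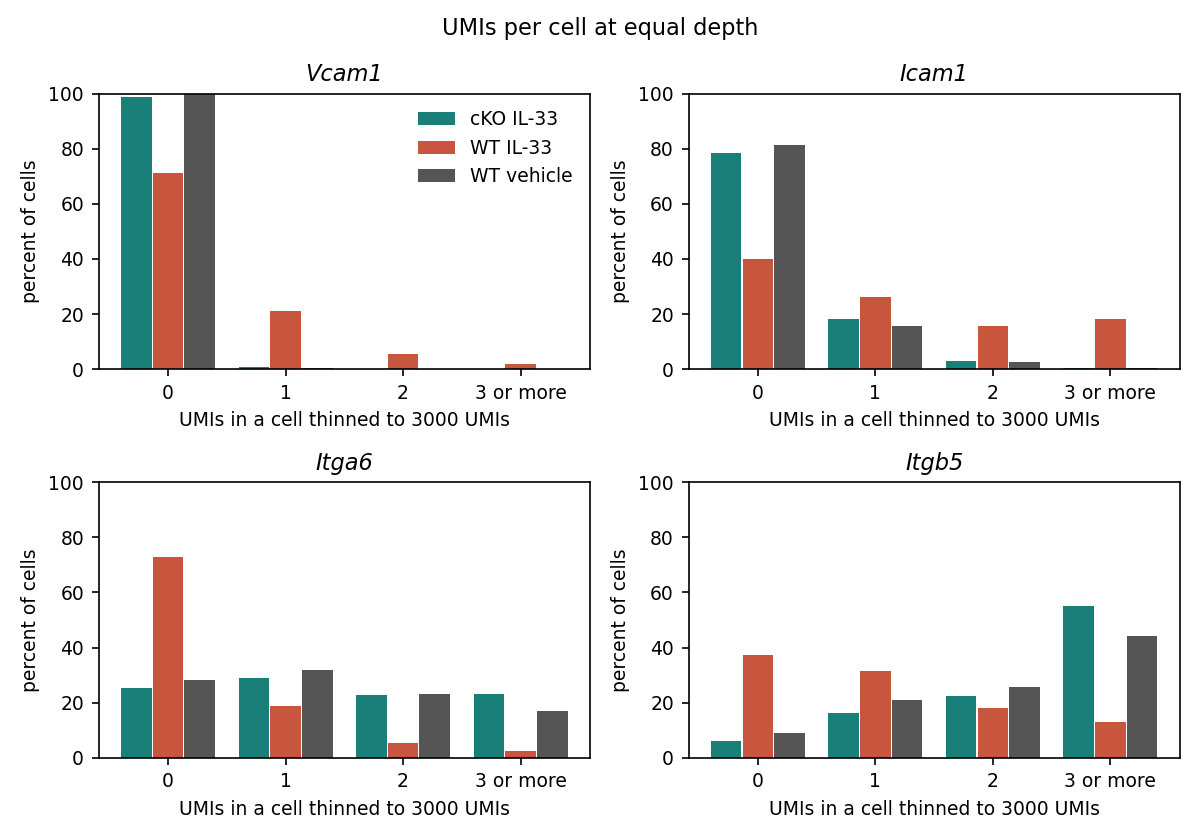
Percent of cells with 0, 1, 2 or at least 3 UMIs of Vcam1, Icam1, Itga6 and Itgb5 after each cell was thinned to 3000 UMIs, with 2601 cKO IL-33, 1849 WT IL-33 and 2632 WT vehicle cells. WT IL-33 cells with 0 UMIs are 71.3% for Vcam1 and 72.9% for Itga6, against 98.8% and 25.2% in cKO IL-33.

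For partner chains and the 2 ligands, the share of cells with 1 gene was similar or modestly higher in cells with a UMI of the other. In thinned WT IL-33 cells, Icam1 was seen in 64.2% of cells with a Vcam1 UMI (59.98% to 68.3%) and in 58.4% of cells without one (55.7% to 61.1%). Within cluster 1 of WT IL-33 these shares were 65.7% and 62.2%. In the same cells, Itgb1 was seen in 61.4% with a Vcam1 UMI and 56.3% without, and Itgav in 43.1% and 39.7%. Others were lower with a Vcam1 UMI, as Itgb5 at 55.2% (50.7% to 59.7%) and 61.3% (58.3% to 64.2%). Itga6 was seen in 20.3% and 24.5%. Of WT IL-33 cells with an Itgam UMI, 26.1% had an Itgb2 UMI, and of those without, 19.4%. In WT vehicle these shares were 38.7% and 37.8%. For Itgav and Itgb5 the shares were 63.0% and 62.5% in WT IL-33 and 90.1% and 91.2% in WT vehicle. For Itga6 and Itgb1 they were 58.7% and 57.0% in WT IL-33 and 69.8% and 67.1% in WT vehicle. Cells of 1 library are not replicates, and these shares are descriptions of that library. Most of these genes had few UMIs per thinned cell, so a tie between them could go unseen. Itgb5, seen in 90.9% of thinned WT vehicle cells, left little room for a difference there.

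Clusters were made by the authors from these same cells, so levels between clusters are a description. Over the 15 pairs of library and cluster with at least 50 cells, Vcam1 ran from 0.463 CPM in cluster 4 of WT vehicle to 139 CPM in cluster 1 of WT IL-33. The top 3 levels were those of clusters 1, 3 and 5 of WT IL-33, at 139, 114 and 105 CPM with overlapping intervals. Vcam1 in cluster 3 was 34.6 CPM in cKO IL-33, 114 CPM in WT IL-33 and 1.40 CPM in WT vehicle, and 14 of the 20 marked cKO IL-33 cells lay there. In cluster 5 it was 19.6 CPM in cKO IL-33, from 12 UMIs in 10 cells, 105 CPM in WT IL-33 and 1.43 CPM in WT vehicle. The lowest WT IL-33 level of Vcam1 was 21.3 CPM in cluster 0, where cKO IL-33 had 1.31 CPM and WT vehicle 0.961 CPM.

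Icam1 was above both other libraries in all 5 clusters of WT IL-33 with at least 50 cells. Its WT IL-33 levels were 237, 483, 208, 194 and 362 CPM in clusters 0, 1, 2, 3 and 5. Its levels in the other libraries ran from 72.8 to 113 CPM in cKO IL-33 and from 62.5 to 96.0 CPM in WT vehicle. Within clusters the ratio of WT IL-33 to WT vehicle was 3.36 in cluster 0, 2.62 in cluster 2, 2.25 in cluster 3 and 3.77 in cluster 5, each below the 5.97 of whole libraries. The 35 cKO IL-33 cells of cluster 1 had 325 CPM of Icam1 (253 to 410) and 32.5 CPM of Vcam1. Those same cells had 1703 CPM of Selplg and 385 CPM of Itga6, against 731 and 126 CPM in the 1815 WT IL-33 cells of that cluster.

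**Figure D4:**
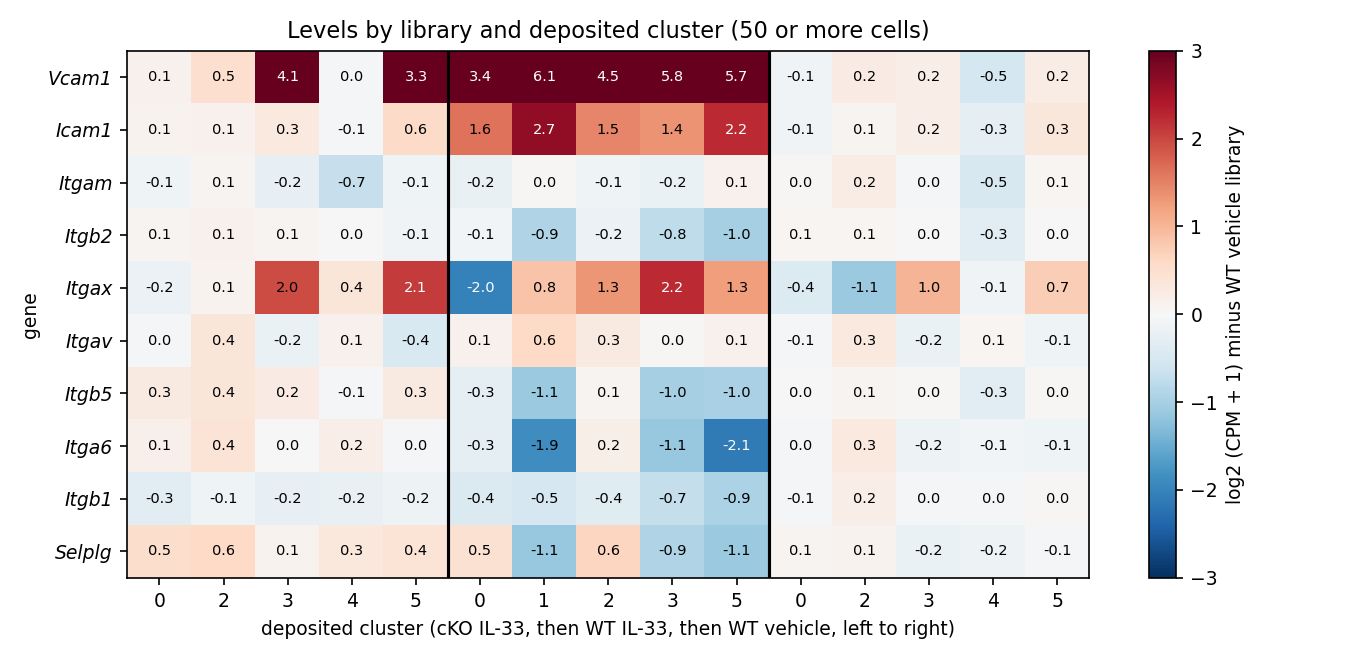
Heat map of log2 (CPM + 1) of each gene in each library and deposited cluster of at least 50 cells, less its value in the whole WT vehicle library, with colours capped at 3 either way. Vcam1 and Icam1 are above 0 in every WT IL-33 cluster, and Itgb5, Itga6 and Selplg are low in WT IL-33 clusters 1, 3 and 5 but not in cluster 2.

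Selplg went opposite ways by cluster. In cluster 0 it had 2323 CPM in cKO IL-33, 2218 CPM in WT IL-33 and 1712 CPM in WT vehicle, and in cluster 2 it had 2446, 2520 and 1739 CPM. There, WT IL-33 stood 1.30-fold (1.22 to 1.38) and 1.45-fold (1.36 to 1.55) above WT vehicle. In cluster 3 Selplg had 1745 CPM in cKO IL-33, 869 CPM in WT IL-33 and 1418 CPM in WT vehicle, and in cluster 5 it had 2144, 751 and 1552 CPM. WT IL-33 was thus 1.63-fold (1.43 to 1.87) and 2.07-fold (1.80 to 2.38) below WT vehicle in those clusters. The WT IL-33 cells numbered 144, 102, 67 and 59 in clusters 0, 2, 3 and 5.

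The 2 integrin chains at least 2-fold lower over whole libraries were closer to WT vehicle in clusters 0 and 2 than in clusters 3 and 5, with no change of direction beyond the interval. Itga6 in cluster 0 had 512 CPM in cKO IL-33, 376 CPM in WT IL-33 and 451 CPM in WT vehicle, and in cluster 5 it had 454, 105 and 420 CPM. The fold below WT vehicle was 1.20 (1.04 to 1.39) in cluster 0 and 3.99 (2.82 to 5.81) in cluster 5 for WT IL-33. Itgb5 in cluster 0 had 1011 CPM in cKO IL-33, 685 CPM in WT IL-33 and 842 CPM in WT vehicle, 1.23-fold lower in WT IL-33 than in WT vehicle (1.11 to 1.37). Itgb5 in cluster 2 had 1072 CPM in cKO IL-33, 886 CPM in WT IL-33 and 886 CPM in WT vehicle. In cluster 3 Itgb5 had 988, 418 and 860 CPM, a level 2.06-fold lower in WT IL-33 than in WT vehicle (1.71 to 2.50). Itgam stayed between 0.785 and 1.05 of WT vehicle in the 4 clusters where WT IL-33 could be set against it. The median log2 ratio of all genes within these clusters was 0.12, 0.11, 0.10 and -0.01 in clusters 0, 2, 3 and 5.

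**Figure D5:**
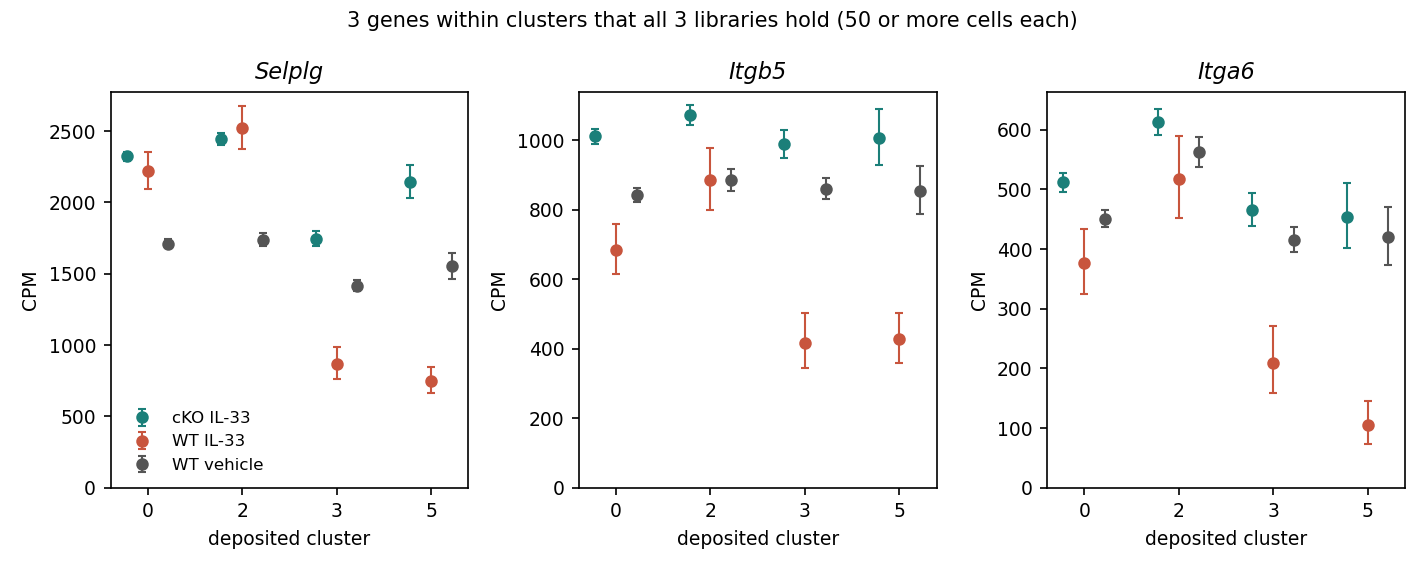
CPM of Selplg, Itgb5 and Itga6 with exact Poisson 95% intervals in the 4 deposited clusters that each library filled with at least 50 cells, on axes that start at 0. WT IL-33 has 2520 CPM of Selplg in cluster 2, above the 1739 CPM of WT vehicle, and 751 CPM in cluster 5, below the 1552 CPM there.

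Counted within clusters, WT IL-33 over WT vehicle had 2 members at least 2-fold higher and 0 lower in clusters 0 and 2, where the background was 8.05% and 7.67% higher and 4.06% and 4.14% lower. Cluster 3 had 3 higher, of which Itgax had an interval that held 1, and 1 lower (background 15.3% and 11%), and cluster 5 had 2 higher and 3 lower (15.7% and 16.3%). Vcam1, and Itgax in cluster 3, were under 10 CPM in WT vehicle, so the minimum counted them there through WT IL-33 alone. In cKO IL-33 over WT IL-33, 0 members were at least 2-fold higher and 2 lower in clusters 0 and 2, beside 3.71% and 3.72% higher and 4.94% and 4.81% lower. Clusters 3 and 5 each had 3 higher and 2 lower, beside 11.7% and 15.5% higher and 12.7% and 14.8% lower. In cKO IL-33 over WT vehicle, 0 members passed 2-fold in clusters 0, 2 and 4, beside 0.509%, 0.769% and 2.04% of genes higher and 0.194%, 0.373% and 1.31% lower. In clusters 3 and 5, Vcam1 and Itgax were at least 2-fold higher and 0 members lower, beside 1.14% and 4.66% of genes higher and 0.506% and 4.99% lower. Itgax there rests on 14.9 and 16.3 CPM in cKO IL-33 and 7.27 and 5.73 CPM in WT vehicle, with an interval that held 1 in cluster 5. Vcam1 and Itgax were under 10 CPM in these clusters of WT vehicle, so the minimum counted them through cKO IL-33 alone.

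The sexes could be set side by side inside the WT IL-33 library, where 802 female-called cells without a Y-linked UMI were set beside 1095 male-called cells. Icam1 had 342 CPM in female and 515 CPM in male cells, a ratio of 0.664 (0.621 to 0.710). Selplg had 952 and 672 CPM, Itgb5 450 and 341 CPM, and Itga6 172 and 112 CPM in female and male cells. Vcam1 had 125 and 136 CPM, with a ratio of 0.922 (0.819 to 1.04). Within cluster 1, which held 74.2% of these female and 85.5% of these male cells, Icam1 had 376 CPM in female and 553 CPM in male cells, and Selplg 737 and 515 CPM. How many animals of each sex gave these cells is not stated in the sources used here.

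Other integrin alpha chains at 10 CPM or more in WT IL-33 or WT vehicle numbered 4, of which WT IL-33 had 3 at 2-fold or more above WT vehicle and 0 below. For this and the next lists, the background was 11.7% of genes higher and 10.4% lower. The 3 higher chains were under 10 CPM in cKO IL-33 and WT vehicle, so the minimum counted them through WT IL-33 alone. Itgae, named beyond the rule after its values were seen, was under 10 CPM in every library and was not counted. It had 9.44, 3.22 and 9.25 CPM in cKO IL-33, WT IL-33 and WT vehicle. Itgal, the Itgb2 partner that binds Icam1, had 2.23 CPM in cKO IL-33, 116 CPM in WT IL-33 and 3.34 CPM in WT vehicle. It stood 34.8-fold above WT vehicle in WT IL-33 (26.9 to 45.8). Itga4, the Itgb1 partner that binds Vcam1, had 6.01, 25.8 and 4.16 CPM in cKO IL-33, WT IL-33 and WT vehicle, and was 6.20-fold higher in WT IL-33 than in WT vehicle (4.81 to 8.08). Itga5, the fibronectin receptor chain, had 6.92, 62.8 and 6.95 CPM and was 9.03-fold higher (7.47 to 10.98). Itgal, Itga4 and Itga5 thus stood above WT vehicle in WT IL-33 while their beta chains Itgb2 and Itgb1 stood below it. By cluster, WT IL-33 had 129 CPM of Itgal in cluster 1 and 4.58 CPM, from 2 UMIs, in cluster 2, where cKO IL-33 had 2.39 CPM and WT vehicle 4.43 CPM. In clusters 0, 3 and 5 Itgal had 17.5, 58.7 and 87.7 CPM in WT IL-33 and 2.16, 3.91 and 1.43 CPM in WT vehicle. Itga9 had 88.6, 112 and 65.4 CPM in cKO IL-33, WT IL-33 and WT vehicle.

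Among other integrin beta chains, Itgb3, a further partner of Itgav, was the sole one at 10 CPM or more, with 25.1 CPM in cKO IL-33, 16.1 CPM in WT IL-33 and 13.4 CPM in WT vehicle. It was 1.88-fold higher in cKO IL-33 than in WT vehicle (1.60 to 2.21). Of 8 other immunoglobulin-type adhesion genes at 10 CPM or more, WT IL-33 had 1 at 2-fold or more above WT vehicle and 1 below. Alcam, a ligand of the T cell protein CD6, had 0.343 CPM in cKO IL-33, 23.9 CPM in WT IL-33 and 0.547 CPM in WT vehicle. Cadm1, a synaptic and epithelial adhesion molecule, had 105, 46.4 and 103 CPM in the same order. Jam2, a junctional adhesion molecule, had 49.0, 25.8 and 48.0 CPM.

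Among 7 selectins, selectin ligands and glycan enzymes at that level, 1 was higher and 1 lower by 2-fold or more. Cd44, a hyaluronan receptor that can carry selectin ligands, had 2.002 CPM in cKO IL-33, 133 CPM in WT IL-33 and 2.08 CPM in WT vehicle. Tpst2, a tyrosine sulphation enzyme of the kind that PSGL-1 needs to bind P-selectin, had 240, 99.7 and 201 CPM in the same order, and Cd34 had 186, 82.6 and 151 CPM. In the list of integrin activation and adhesion complex genes, 24 were at 10 CPM or more, of which 5 were at least 2-fold higher and 2 lower. Fgr, a Src-family kinase that acts downstream of Itgb2, was among the higher ones, with 2.12 CPM in cKO IL-33, 34.6 CPM in WT IL-33 and 0.985 CPM in WT vehicle. Fyb, an adaptor that couples receptors to integrin activation, had 626, 2645 and 475 CPM. Of 4 integrin ligands and matrix genes at that level, 1 was higher, C3, whose product is the source of the ligand of the complement receptors. C3 had 2.17, 31.3 and 1.31 CPM in cKO IL-33, WT IL-33 and WT vehicle. Cd44, Fgr and C3, like Alcam, were under 10 CPM in cKO IL-33 and WT vehicle. The minimum counted these genes through WT IL-33 alone, also in cKO IL-33 over WT IL-33. Mfge8, which links dying cells to Itgav integrins, had 17.8, 12.3 and 17.2 CPM, and Tgfb1 had 315, 228 and 312 CPM. Beyond the rule for named genes, and picked after their values were seen, Lyn and Ptk2b were also among the higher activation genes, and Tln2 and Parvg were the lower ones, with ratios of 3.85, 2.02, 0.222 and 0.472. In cKO IL-33 over WT IL-33, the counts at 2-fold or more were 0 higher and 3 lower of 4 alpha chains, 0 of 1 beta chain either way, 1 and 1 of 8 immunoglobulin-type genes, 2 and 1 of 7 selectin-related genes, 1 and 4 of 24 activation genes and 0 and 1 of 4 ligands, beside 10.9% of all genes higher and 9.85% lower. Among the lower genes were the alpha chains Itgal, Itga4 and Itga5, with Alcam, Cd44, Fgr, Fyb, Lyn and C3, and the higher genes were Cadm1, Cd34, Tpst2 and Tln2. None of the 6 lists had a gene at 10 CPM or more past 2-fold in cKO IL-33 over WT vehicle.

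Across the 15 pairs of library and cluster, log2 (CPM + 1) of Vcam1 and Icam1 had a Pearson correlation of 0.88. Itgb2 correlated with Itga6 and with Itgb5 at 0.95, Itgb5 with Itga6 at 0.92, and Icam1 with Itga6 at -0.83. Pairs from 1 library share its sequencing and its animals, so these values have no p and describe the heat map. Itgam correlated with no other member beyond 0.27. Among 4203 genes at 50 CPM or more in a library, those most like Vcam1 were Gadd45b (0.96), Aoah (0.95) and Ndufaf4 (0.93). Those most like Icam1 were Birc3, St3gal1 and Herpud1, all at 0.98. Itga6 was most like Golm1 (0.99), Tnfrsf13b (0.98) and Abhd12 (0.98), and Itgb5 like Gm2629 (0.98), Smad7 (0.97) and Hbp1 (0.97). Selplg was most like Rnase4 (0.98), Dusp6 (0.97) and Serinc3 (0.97), and Itgb2 like Fbxl20 (0.98), Ypel3 (0.98) and Fam117b (0.97). Itgb1 was most like Med13l (0.94), St3gal5 (0.93) and Erbin (0.93). The closest genes to Itgam were Unc93b1 (0.84), Vhl (0.81) and Jak1 (0.80), those to Itgav were Spag9 (0.88), Slc26a2 (0.87) and Desi2 (0.86), and those to Itgax were Sh3gl1 (0.81), Pam16 (0.80) and Csf2ra (0.74).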

How the data were processed

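CD45-positive cells of mouse thalamus, isolated with a 22% Percoll gradient and sorted, were profiled on a 10x Genomics Chromium Chip G, per the labels' protocols. Raw UMI counts were deposited for 20586 genes and 7598 cells, in 1 table for the 3 libraries. A deposited table of cells gives, per the file headers, each cell's library, sex call, cluster and phase, with mitochondrial and ribosomal UMIs as a percent of the cell's UMIs. Cell Ranger 5.0, Seurat 4.0.1 and the build GRCm38 are named, without roles, in the submitters' processing notes. The strand setting, cell filter and any doublet removal are not stated in the sources used here, and no doublet caller was run.

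UMIs of all deposited cells were summed per library (12127214 to 18269042) and per deposited cluster of at least 50 cells, and divided by the total to give CPM. Intervals are exact Poisson for CPM, exact conditional binomial for ratios and exact binomial (Clopper-Pearson) for shares, at 95%. UMIs within a cell are not independent draws of a condition, so the intervals cover counting error only. A gene was counted at 2-fold if 1 of the libraries compared had 10 CPM or more of it. Medians of log2 ratios and likeness used a pseudocount of 1 CPM. Cells were thinned without replacement to 3000 UMIs, leaving out 86 cKO IL-33, 353 WT IL-33 and 77 WT vehicle cells. Python 3.11.15 with numpy 2.4.6, pandas 2.3.3 and scipy 1.17.1 was used. The 2-fold call and the ratio intervals were tested on simulated library sums, and the other steps were not. Gene positions are from GENCODE on GRCm38 and promoters from RefSeq on GRCm38.p6.

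The members, the gene lists and the tests were chosen with earlier results of these data known. All members are named. Of each list of related genes, up to 3 at 10 CPM or more with the largest log2 ratio in WT IL-33 over WT vehicle are named, with any further integrin chain at that level. An item that this rule names is not reported here. For likeness, the 3 genes with the highest Pearson correlation to each member are named. Il1rl1, the 2 added promoter motifs, the cells with 2 border macrophage markers and the levels in the small cluster 1 of cKO IL-33 were singled out after the values were seen. Scaling, minimum, pseudocount, cell subsets and clusters were varied as alternatives.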

Additional observations from a re-analysis of the deposited data

Results flagged for a closer look

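Selplg in WT IL-33 over WT vehicle went one way in some deposited clusters and the other way in others. The ratio was 1.30 in cluster 0 and 1.45 in cluster 2, but 0.613 in cluster 3 and 0.484 in cluster 5. With 1 library per group the difference between clusters was not tested, and each interval, which covers counting error only, lay off 1. Male-called cells of cluster 0 gave a log2 ratio of 0.62, set against 0.37 for all cells of that cluster.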

How the results depend on the processing

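Members at least 2-fold lower in WT IL-33 than in WT vehicle numbered 1 in place of 2 under median-of-ratios scaling, with 10 CPM added to each level, without deposited cluster 3 and within cluster 3, and 0 within clusters 0 and 2. In the first 3 of these Itgb5, at a log2 ratio of -0.97, -0.99 and -0.99, was the member lost. They numbered 3 in male-called cells, without cells with Xist and Y-linked UMIs, and in cells with 3000 to 8000 UMIs, where Selplg passed 2-fold as well, at log2 ratios of -1.27, -1.02 and -1.15, and 3 within cluster 5. Male-called cells of cluster 0, an alternative chosen after seeing the data, gave 1 member higher and 0 lower. Members at least 2-fold higher in cKO IL-33 than in WT IL-33 numbered 0 in place of 3 within clusters 0 and 2. Those higher in cKO IL-33 than in WT vehicle numbered 1 in place of 0 with no CPM minimum, and 2 within clusters 3 and 5. Within cluster 2, the log2 ratio of Itgb5 in WT IL-33 over WT vehicle was 0.000401 and that of Selplg in cKO IL-33 over WT IL-33 was -0.043, both with the sign turned. The cause was not tested. Over 12 alternatives on whole libraries the log2 ratio of WT IL-33 to WT vehicle ran from 2.43 to 2.77 for Icam1 and from 3.65 to 7.06 for Vcam1, where 3.65 came with 10 CPM added. For Itgam it changed sign, between -0.07 and 0.04. No paired analysis was possible because each group had 1 library and no replicate numbers. Comparisons within clusters 1 and 4 and in cells of 1 sex were not run where a library held under 50 such cells. Depth limits Itgax and, outside WT IL-33, Vcam1.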
